A study of Mus musculus with 20 samples.

Results

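The 9 genes followed here in cultured mouse ovarian surface epithelial (OSE) cells act on estradiol, on its oxidised products or in the control of such enzymes: Cyp1b1, Hsd17b4, Hsd17b7, Hsd17b10, Hsd17b11, Hsd17b12, Sult1a1, Nqo1 and Ahr. They were picked by name, with earlier results of these data known, and all 9 were among the 14299 genes of the deposited count table. OSE cells are the epithelium on the outside of the ovary. Primary cultures of these cells were kept for 48 h in hormone-free medium and then grown for 15 days with 100 nM of the estrogen estradiol (E2) or with vehicle alone (EtOH at a final 0.0002%), and cells were then captured one by one with a Fluidigm C1 HT chip, where each column yields 1 cDNA library. The 10 control libraries held 329 cells and the 9 E2 libraries held 260 cells, while column 13 was not analysed here. All control cells entered the chip through 1 inlet and all E2 cells through the other, and the number of cultures behind each is not given in the sources used here. E2 therefore cannot be told apart from the loading of the chip, and the p-values measure the spread between chip columns, which may be technical. Clusters are those of the study, which named a smaller group of E2-unresponsive cells cluster 1 (126 control and 42 E2 cells). The other cells (203 control and 218 E2) are called responsive cells below, and the question was which of these groups carried transcripts of enzymes that could inactivate E2.

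Estradiol is inactivated by several routes. Cytochrome P450 enzymes such as CYP1B1 add a hydroxyl group to its aromatic ring and give catechol estrogens, hydroxysteroid dehydrogenases oxidise it to the weaker estrogen estrone or reduce estrone back to estradiol, and sulfotransferases attach a sulfate that prevents binding to the estrogen receptor. Catechol estrogens can oxidise further to reactive quinones, which NQO1 reduces. AHR is a ligand-activated transcription factor whose best known targets are CYP1 family genes and NQO1. All values below are transcript levels. Enzyme activity and E2 in the medium were not measured.

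Within each library the counts of its cluster 1 cells and of its responsive cells were added up separately, and only sums over at least 3 cells were used. This kept 10 control and 7 E2 sums of cluster 1, and 10 control and 9 E2 sums of responsive cells. Levels are CPM, the usual depth-scaled counts, on the TMM-normalised total of a sum. Shares of cells with a read were taken after every cell had been thinned to 20000 reads, since depth differed: the median was 112126 reads in control cluster 1 cells, 87632 in E2 cluster 1 cells, 143233 in control responsive cells and 117809 in E2 responsive cells. The median percent of mitochondrial reads was 2.53, 3.55, 2.08 and 2.43 in the same order, and its part in the results was not tested. All 40 site barcodes of the chip recur in more than 1 library, as the chip is built, and no pair of cells shared both barcode and library.

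Both clusters carried OSE markers, in different proportions. The summed level of 8 OSE markers was 3712 to 6281 CPM in control and 3650 to 5442 CPM in E2 cluster 1 libraries, with Lgals7 at 0 in both, and 4685 to 5471 CPM in control and 3105 to 5354 CPM in E2 responsive libraries. Within this list the keratin Krt19 was lower and the surface protein Msln higher in cluster 1 in all 17 libraries with both kinds of cell, by log2 differences of -4.43 and 3.27, and Krt19 rose with E2 in responsive cells (log2 fold change 0.62, adjusted p = 0.00973 by edgeR). Of 6 stromal fibroblast markers 5 were in the table, and their sum was 2485 to 4186 CPM in control and 2551 to 9688 CPM in E2 cluster 1 libraries, against 1418 to 1855 CPM in control and 1058 to 2753 CPM in E2 responsive libraries. Among these Col1a2 was higher in cluster 1 and Thy1 was lower, by log2 differences of 7.26 and -4.38. Thy1 also fell with E2 in responsive cells by 2.78 on the log2 scale (adjusted p = 2.4e-06 by edgeR). Mean Col1a1 was lower in cluster 1 (78.8 CPM in control and 98.7 with E2, against 195 and 135 CPM in responsive libraries). Mean Pdgfra was 3.55 to 8.48 CPM in the 4 groups, and mean Dcn was 1255 to 2197 CPM. The median log2 difference of the 5 markers was -0.33, beside -0.06 over all genes. The theca marker Star was higher in cluster 1 (2.48), the endothelial marker Kdr lower (-6.20), and the 1 of 4 leukocyte markers in the table stayed at 11.02 CPM or below. The part of these markers in the results below was not tested.

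Cyp1b1, the estrogen hydroxylase, was the member that separated the clusters most sharply. In cluster 1 the control libraries had 125 CPM at the lowest, 276 at the median and 682 at the highest, and the 7 E2 libraries had 54.2, 67.2, 179, 230, 443, 707 and 1194 CPM. In responsive cells the level was 0 to 5.42 CPM in control libraries (median 0.923) and 0 to 10.7 CPM in E2 libraries (median 0.505). The ranges of cluster 1 and responsive libraries did not overlap in either condition, whereas control and E2 libraries overlapped within each cluster. In the order of mean levels, the 2 cluster 1 groups (411 ± 415 CPM with E2, SD, n = 7, and 320 ± 172 CPM in control, n = 10) stood above the 2 responsive groups (1.70 ± 3.43 CPM with E2, n = 9, and 1.54 ± 1.69 CPM in control, n = 10), and neighbours within a cluster did not differ beyond their spread.

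The clusters were made from the expression of these same cells, so no test was made between them. Over both conditions the fitted log2 difference of Cyp1b1 was 7.73 (SE 0.53), with the higher level in cluster 1 in 17 of 17 libraries that held both kinds of cell. Genes were counted as different between clusters where the absolute log2 difference exceeded 1 with the same sign in all 17 libraries. By that rule 238 of 10597 genes (2.25%) differed, of which 37 (0.349%) were higher in cluster 1 and 201 (1.9%) lower, and of the 8 members in this fit Cyp1b1 alone was counted. With cells relabelled by k-means clustering of the unimputed counts without the 9 genes, which matched the study's labels in 583 of 589 cells, the log2 difference of Cyp1b1 was 7.65, and Nqo1 was counted as well.

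Nearly all Cyp1b1 reads came from cluster 1. Its cells held 33.1% of all reads in control and 12.6% with E2, but 4884 of 4928 Cyp1b1 reads (99.1%) in control and 1329 of 1371 (96.9%) with E2. A read was found in 58.7% of control cluster 1 cells (74 of 126, exact 95% interval 49.6% to 67.4%) and in 64.3% of E2 cluster 1 cells (27 of 42, 48.0% to 78.4%). Among responsive cells the share was 4.43% in control (9 of 203) and 1.83% with E2 (4 of 218), the thinned control cells had no more than 1 read each, and 28 of the 42 Cyp1b1 reads of E2 responsive cells lay in 1 cell. These intervals cover counting error only, since they take cells as independent. Between libraries the share was 37.5% to 100% in control cluster 1 and 33.3% to 100% in E2 cluster 1. The reads also carry no molecular identifiers.

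Other transcripts that were higher in cluster 1 were set beside Cyp1b1 as a description. Cyp1b1 in control responsive libraries stood at 0.481% of its mean level in control cluster 1. The 20 transcripts above 100 CPM with the largest difference between clusters stood at 0.584% to 24.7% there (median 9.72%). With E2 the value for Cyp1b1 was 0.413%, within the range of these 20 transcripts (0.195% to 24.9%, median 6.42%). The 20 were picked by their difference between these same clusters, so low values follow from the choice. They cannot show whether the Cyp1b1 reads of responsive cells came from those cells, which was not tested.

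**Figure D1:**
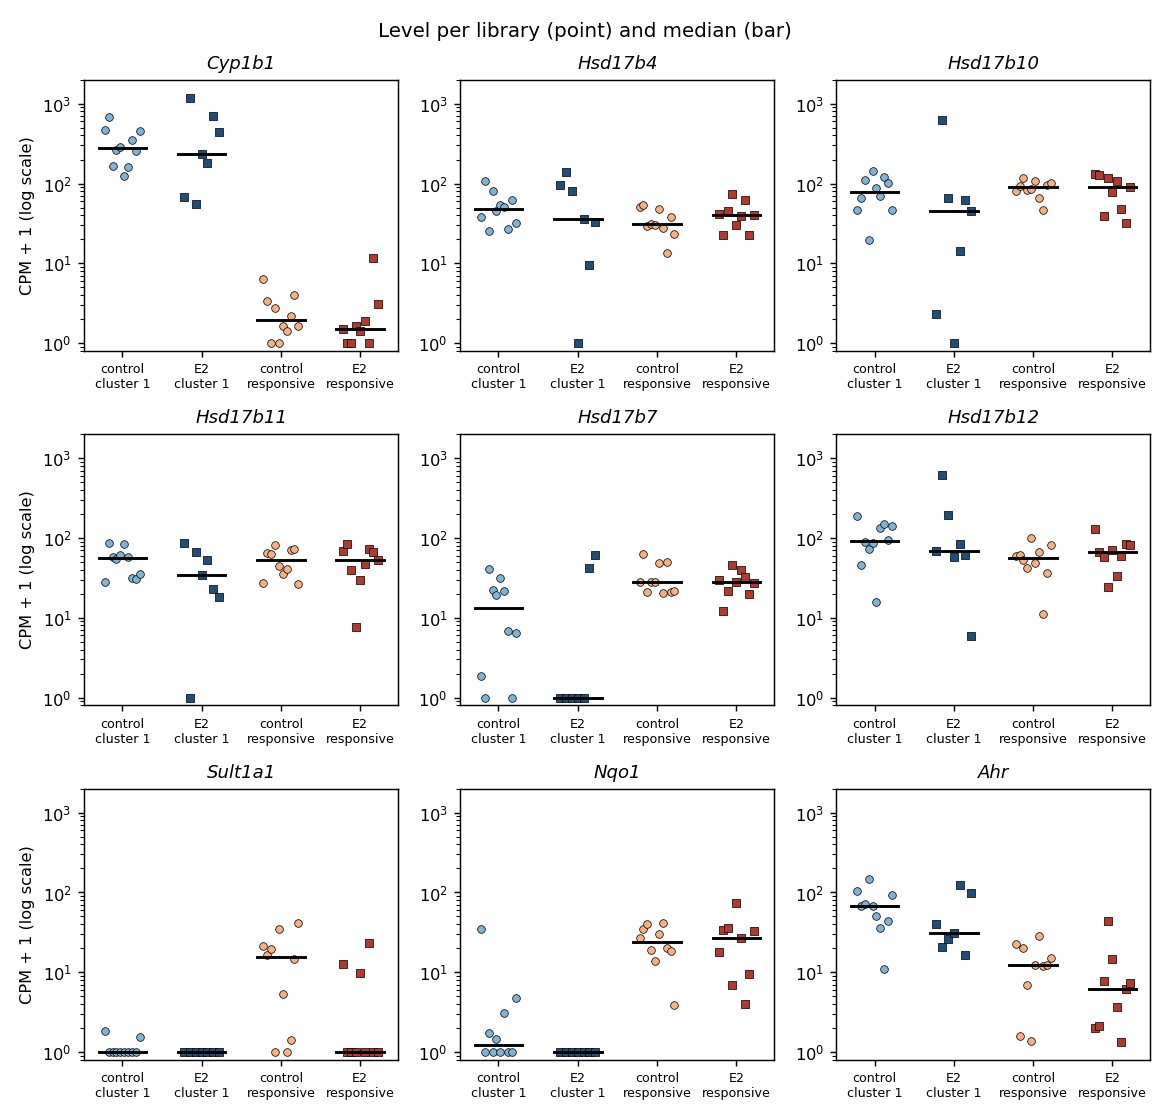
Level of each gene per library, as CPM + 1 on a log scale, in control and E2 libraries of cluster 1 (10 and 7 points) and of responsive cells (10 and 9 points), with bars at the medians. Cyp1b1 lies at 54.2 CPM or above in every cluster 1 library and at 10.7 CPM or below in every responsive library, while Nqo1 and Sult1a1 are at or near 0 in most cluster 1 libraries.

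Cyp1b1 lies on mouse chromosome 17 (GRCm38, chr17:79701537-79715061, minus strand). The 250 bases before its RefSeq start site are given here with those of Nqo1 and Sult1a1, as the 3 enzyme genes whose reads were divided most unevenly between the clusters. Sequences are from RefSeq on GRCm38.p6, on the minus strand, 5′ to 3′. Capitals mark the core of the xenobiotic response element bound by AHR with its partner ARNT (GCGTG, or CACGC on the other strand).
Cyp1b1 (chr17:79715062-79715311): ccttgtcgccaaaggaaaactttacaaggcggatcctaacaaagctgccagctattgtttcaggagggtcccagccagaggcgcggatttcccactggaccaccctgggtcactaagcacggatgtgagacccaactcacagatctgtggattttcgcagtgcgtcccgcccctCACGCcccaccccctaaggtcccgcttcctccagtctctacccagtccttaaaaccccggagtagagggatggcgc
Nqo1 (chr8:107403206-107403455): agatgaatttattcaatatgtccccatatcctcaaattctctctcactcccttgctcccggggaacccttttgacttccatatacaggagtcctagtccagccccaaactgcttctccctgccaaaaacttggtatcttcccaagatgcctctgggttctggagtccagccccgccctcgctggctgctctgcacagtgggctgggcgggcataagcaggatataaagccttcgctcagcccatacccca
Sult1a1 (chr7:126676419-126676668): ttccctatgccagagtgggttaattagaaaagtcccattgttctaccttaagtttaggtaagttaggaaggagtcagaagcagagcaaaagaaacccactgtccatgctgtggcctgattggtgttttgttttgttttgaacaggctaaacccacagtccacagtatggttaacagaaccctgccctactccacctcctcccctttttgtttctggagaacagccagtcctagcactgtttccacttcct

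The core was found once in the Cyp1b1 window, beginning 76 bases before the start site, and not in the windows of Nqo1 and Sult1a1. Both strands were searched in the 7 members that the promoter table holds, and 3 of them had a match (Cyp1b1, Hsd17b7 and Hsd17b11), against 28.2% of 32851 promoters of the same length. The antioxidant response element TGACNNNGC was found in 0 of 7 and in 10.2% of all promoters, and the full palindromic estrogen response element in 0 of 7 and in 0.0639%. No match overlapped another. A match is a description of letters and not a measured site.

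Ahr, the receptor itself, was also higher in cluster 1, with more overlap. Cluster 1 libraries had 9.82 to 145 CPM in control (median 67.1) and 15.4 to 122 CPM with E2 (median 30.5). Responsive libraries had 0.373 to 27.7 CPM in control (median 11.2) and 0.329 to 43.3 CPM with E2 (median 5.16). The ranges of the clusters overlapped in both conditions, and Ahr was higher in cluster 1 in 15 of 17 libraries, with a log2 difference of 2.47 (SE 0.48).

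An Ahr read was found in 31.7% of control and 28.6% of E2 cluster 1 cells, against 7.88% of control and 4.13% of E2 responsive cells. Cluster 1 held 75.4% of the Ahr reads of control cells and 46.3% of those of E2 cells. In the E2 responsive cells, 116 of 225 Ahr reads lay in 1 cell, in column 15. Within control cluster 1 an Ahr read was found in 25 of the 74 cells with a Cyp1b1 read (33.8%) and in 15 of the other 52 (28.8%), and within E2 cluster 1 in 8 of 27 and 4 of 15. An exon of Ahr overlaps a long noncoding RNA gene on the opposite strand, and the strand setting used in counting is not given in the sources used here, so their reads cannot be told apart.

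Nqo1, the quinone reductase, had the opposite distribution. Responsive libraries had 2.86 to 41.0 CPM in control (median 22.7) and 2.96 to 72.9 CPM with E2 (median 26.1). In control cluster 1 the level was 0 in 5 of 10 libraries and reached 34.2 CPM in column 1, where 40 of the 53 Nqo1 reads lay, 32 of them in 1 cell. In E2 cluster 1 there was no Nqo1 read among 3742438, so every library was at 0. A floor of 3 counts over the group is 0.802 CPM, but it takes reads as independent, which reads of 1 cell are not. The ranges of the clusters therefore overlapped in control and not with E2. The E2 cluster 1 sums are shallow, and in column 15 only 4 reads of Ahr made 19.7 CPM. A single Nqo1 read in that sum would have made the ranges overlap (lowest E2 responsive library 2.96 CPM). The share of all genes whose ranges lay apart is not given here.

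The log2 difference of Nqo1 was -3.62 (SE 0.78), with the lower level in cluster 1 in 15 of 17 libraries, and it was -5.40 without control column 1. Pooled over libraries, Nqo1 was 6.26-fold higher in responsive than in cluster 1 cells in control (counting interval 4.73 to 8.45). It was 23.3-fold higher without control column 1 (13.5 to 44.0). These intervals take reads as independent, and the interval with all libraries does not cover the value without column 1. With E2 the pooled level was 23.5 CPM in responsive cells and 0 in cluster 1, and no fold is given. A Nqo1 read was found in 13.8% of control and 16.5% of E2 responsive cells. In cluster 1 it was found in 1.59% of control cells (2 of 126) and in 0 of 42 E2 cells, which allows a share of up to 7.14% at 3 cells (exact upper bound 8.41%).

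Sult1a1, a sulfotransferase of phenols and estrogens, was rare and was read almost only in responsive cells. Those libraries had 0 to 40.1 CPM in control (median 14.6, above 0 in 8 of 10) and 0 to 22.05 CPM with E2 (median 0, above 0 in 3 of 9). In cluster 1 there were 2 reads in control, in 2 libraries, and none with E2. The pooled level of responsive cells was 104.6-fold that of cluster 1 in control (counting interval 28.8 to 867, which takes reads as independent). With E2 the pooled level was 4.25 CPM in responsive cells and 0 in cluster 1. No fold is given with E2, since 0 of 42 cluster 1 cells allows a share of up to 8.41% (exact upper bound). The share found in E2 responsive cells was 1.83%. The 423 Sult1a1 reads in control responsive cells came from 17 of 203 cells and the 110 reads in E2 responsive cells from 6 of 218 cells. Sult1a1 shares exon sequence with Sgf29 on the opposite strand (GRCm38, chr7:126672865-126676432 for Sult1a1), which cannot be told apart from it without strand.

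**Figure D2:**
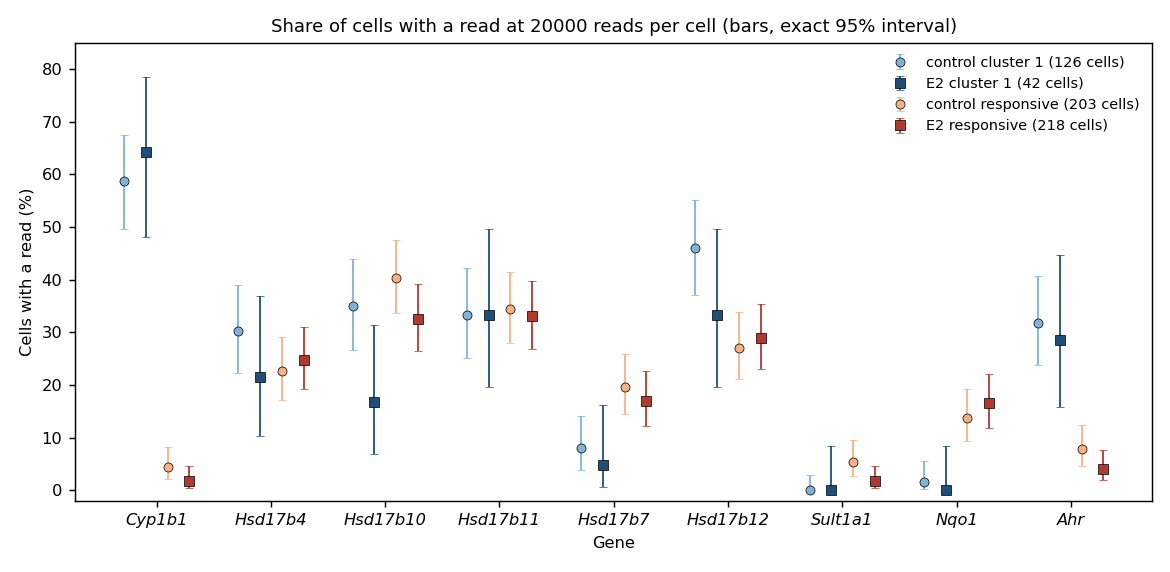
Percent of cells with at least 1 read of each gene after thinning to 20000 reads per cell, by condition and cluster, with exact 95% binomial intervals over cells. Cyp1b1 (58.7% and 64.3% against 4.43% and 1.83%) and Ahr are read in more cluster 1 than responsive cells, and Hsd17b7, Sult1a1 and Nqo1 in more responsive cells. Between the clusters the intervals of Sult1a1 overlap in both conditions, and those of Hsd17b7 overlap with E2.

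The 3 dehydrogenases able to oxidise hydroxysteroids were found in both clusters. HSD17B4 is a peroxisomal enzyme that oxidises estradiol and also breaks down fatty acids, HSD17B10 is a mitochondrial dehydrogenase of steroids and of branched amino acid products, and HSD17B11 is a lipid droplet enzyme. Hsd17b4 had medians of 47.5 CPM in control cluster 1, 35.2 in E2 cluster 1, 29.9 in control responsive and 39.4 in E2 responsive libraries. Hsd17b10 had 78.1, 44.8, 88.4 and 89.8 CPM, and Hsd17b11 had 54.9, 33.8, 52.7 and 52.5 CPM, in the same order.

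The ranges of all 4 groups overlapped for each of these 3 genes. The log2 difference between clusters was 0.52 (SE 0.34) for Hsd17b4, 0.09 (SE 0.40) for Hsd17b10 and -0.15 (SE 0.30) for Hsd17b11. Hsd17b10 rested on E2 column 15, whose cluster 1 sum holds 3 cells and 617 CPM of this gene, and its log2 difference was -0.60 without that column.

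Of the members that reduce ketosteroids, Hsd17b12 had the higher level in cluster 1 and Hsd17b7 in responsive cells in most libraries. HSD17B12 is known as an elongase of fatty acids and a reductase of estrone, and HSD17B7 acts in cholesterol synthesis and reduces estrone to estradiol. Hsd17b12 had medians of 90.2 CPM in control cluster 1, 67.2 in E2 cluster 1, 54.6 in control responsive and 65.4 in E2 responsive libraries. It was higher in cluster 1 in 11 of 17 libraries, with a log2 difference of 1.01 (SE 0.33) that fell to 0.57 without E2 column 15, where it too stood at 617 CPM. Hsd17b7 had medians of 12.1, 0, 27.0 and 26.9 CPM, with no read in 5 of 7 E2 cluster 1 libraries. It was lower in cluster 1 in 13 of 17 libraries (log2 difference -1.06, SE 0.57, and -2.58 with the library as a block), and the ranges overlapped in both conditions.

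Pooled by reaction, the share of cells with a read differed most between clusters for hydroxylation, then for sulfation or quinone reduction. It differed less for the pooled dehydrogenases, an order that does not hold for each single gene. These groups were formed after the values were seen, and no test was made. A read of at least 1 of the 3 oxidising dehydrogenases was found in 69.0% of control and 54.8% of E2 cluster 1 cells, and in 71.9% of control and 66.1% of E2 responsive cells. For Hsd17b7 or Hsd17b12 the shares were 51.6%, 38.1%, 42.4% and 39.9%. A read of Sult1a1 or Nqo1 was found in 1.59% and 0% of cluster 1 cells but in 19.2% and 18.3% of responsive cells. Most of this was Nqo1 (13.8% and 16.5% of responsive cells), with Sult1a1 in 5.42% and 1.83%. With E2 no difference in the share is shown for Sult1a1, since 0 of 42 cluster 1 cells allows up to 8.41% (exact upper bound). The oxidising genes were thus read in 54.8% or more of the cells of each of the 4 groups at equal depth. Cyp1b1 was read mainly in cluster 1 and Nqo1 mainly in responsive cells, as was the rare Sult1a1 in control.

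**Figure D3:**
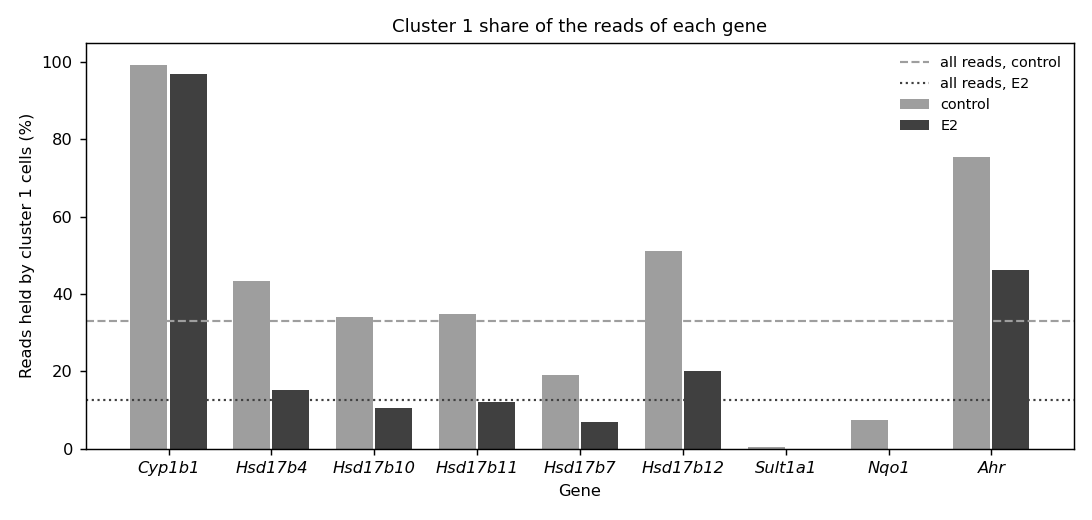
Percent of the reads of each gene that came from cluster 1 cells, in control and E2 cells, with lines at the percent of all reads held by cluster 1 (33.1% in control and 12.6% with E2). Cyp1b1 stands at 99.1% and 96.9%, Ahr at 75.4% and 46.3%, and Nqo1 at 7.32% and 0%.

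The study's trajectory states were made from the same imputed expression values as the clusters, so they are given as a description only. State 1 holds all 126 control cluster 1 cells and 22 control responsive cells, and the pooled level was 336 CPM in the former and 2.29 CPM in the latter. The 41 E2 cluster 1 cells of state 1 had 364 CPM. Responsive cells of the other states had 0 to 2.56 CPM. In the 22 responsive cells of state 1 Nqo1 was at 21.6 CPM, beside 3.64 CPM in the control cluster 1 cells.

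Exposure to E2 changed none of the members past the threshold within responsive cells. Calls required an adjusted p below 0.05 (edgeR quasi-likelihood test, Benjamini-Hochberg over all genes tested) and an absolute log2 fold change above 0.5, and both held for 141 of 10265 genes (1.37%). Of the 8 members tested 0 were called and 0 had an unadjusted p below 0.05, and DESeq2 and limma-voom also called 0. Cyp1b1 had too few reads in responsive cells to be tested.

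The 3 narrowest intervals in responsive cells were those of dehydrogenases. The log2 fold change was -0.02 for Hsd17b10 (95% interval -0.54 to 0.50), 0.28 for Hsd17b4 (-0.35 to 0.91) and 0.29 for Hsd17b12 (-0.37 to 0.95). Hsd17b7 and Hsd17b11 had values of -0.21 (-0.89 to 0.46) and 0.01 (-0.68 to 0.69). The intervals of these 5 genes still allow changes, up to 1.93-fold higher for Hsd17b12 and 1.86-fold lower for Hsd17b7. Nqo1 differed by 0.12 (-0.89 to 1.14) and Ahr by -0.47 (-2.04 to 1.09), or by -1.39 without E2 column 15. Sult1a1 had the widest interval of these 8 genes, with a log2 difference of -1.62 (SE 1.14, -3.97 to 0.72, adjusted p = 0.739 by edgeR), and it was -2.54 without E2 column 18.

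Within cluster 1, where the E2 sums hold 3 to 9 cells, 0 of the 7 members tested were called, 0 had an unadjusted p below 0.05, and DESeq2 and limma-voom called 0, while 7 of 8340 genes (0.0839%) were called. Cyp1b1 differed by 0.41 (SE 0.48, 95% interval -0.58 to 1.39, adjusted p = 0.944 by edgeR), and by -0.17 without E2 column 15, its highest library. Ahr differed by -0.40 (-1.54 to 0.73). The dehydrogenases ranged from -0.36 for Hsd17b11 to 0.65 for Hsd17b12, and the values of Hsd17b4, Hsd17b10 and Hsd17b12 turned from 0.14, 0.55 and 0.65 to -0.28, -1.36 and -0.37 without E2 column 15. For Hsd17b4 the sign also turned without E2 column 11. Hsd17b7 differed by 0.06 (-2.45 to 2.57), and its sign turned in 7 of the 12 fits with a library left out that tested it, down to -0.99 without E2 column 20. Sult1a1 and Nqo1 had too few reads in cluster 1 to be tested.

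**Figure D4:**
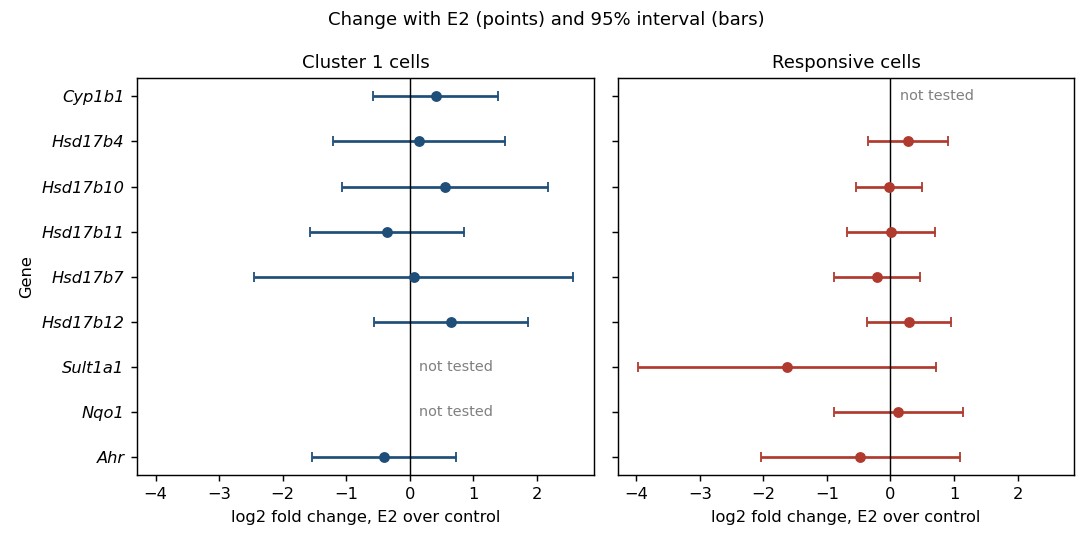
Log2 fold change of E2 over control with its 95% interval for each gene tested in cluster 1 cells (7 E2 and 10 control sums) and in responsive cells (9 and 10). All intervals include 0, from the narrow one of Hsd17b10 in responsive cells (-0.54 to 0.50) to the widest, of Hsd17b7 in cluster 1 (-2.45 to 2.57).

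The response to E2 was not shown to differ between the clusters for any member. In the test of the interaction 21 of 11398 genes (0.184%) were called, and 0 with the library as a block, which takes account of sums from the same library (925 genes then had an unadjusted p below 0.05). Of the members, 0 of 9 were called by edgeR, DESeq2 or limma-voom. Nqo1 alone had an unadjusted p below 0.05 (adjusted p = 0.223 by edgeR), and no fold is given for it because all of its E2 cluster 1 sums were 0.

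Over all cells of a library together, as a culture without single-cell resolution would be measured, Cyp1b1 was 23.5 to 171 CPM in control (median 111) and 9.08 to 126 CPM with E2 (median 32.6). The ranges overlapped. The log2 fold change was -1.21 (SE 0.39), which did not pass the threshold (adjusted p = 0.149 by edgeR). It passed with DESeq2 (adjusted p = 0.0457) and in the edgeR fit without E2 column 19 (adjusted p = 0.0358). Cluster 1 made up 38.1% ± 9.57 of the cells of a control library (SD, n = 10) and 16.5% ± 9.22 of an E2 library (n = 9), and its share of all reads was lower with E2 by 1.39 on the log2 scale. Ahr had a median of 30.3 CPM in control and 11.5 CPM with E2 (log2 fold change -1.05, SE 0.45, adjusted p = 0.336 by edgeR). In this comparison 177 of 10945 genes (1.62%) were called, 2 of the 9 members had an unadjusted p below 0.05 and 0 were called.

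Other enzymes of the same pathways were described in lists. Of 27 genes of steroid hydroxylation and conversion 11 were in the table, and of the 7 tested in responsive cells 1 rose with E2. The median log2 fold change was 0.45 in the list and 0.02 over all genes. The gene was Rdh10, which oxidises retinol to retinal. It had 19.4 to 64.9 CPM in control (median 36.8) and 61.2 to 185 CPM with E2 (median 136), and its log2 fold change was 1.64 (SE 0.26, adjusted p = 0.000359 by edgeR). The ranges overlapped only between 61.2 and 64.9 CPM. Rdh10 was also lower in cluster 1 in 17 of 17 libraries, with a log2 difference of -2.43 (SE 0.48).

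Among 24 genes of conjugation and transport 16 were in the table, and of the 12 tested in responsive cells 1 rose, 5 had an unadjusted p below 0.05, DESeq2 called 2 and limma-voom 0, beside 1.37% of all genes called. The gene called by edgeR was Mgst1, a membrane glutathione transferase, with 1167 to 1673 CPM in control (median 1500.0) and 1653 to 5502 CPM with E2 (median 1840.2). Its log2 fold change was 0.66 (SE 0.17, adjusted p = 0.0415 by edgeR), and the call was lost with limma-voom, without the filter on genes and in 14 of 19 fits with a library left out. The ranges overlapped between 1653 and 1673 CPM, and the median of the list was 0.37. Over all cells of a library, 7 of the 13 list genes tested had an unadjusted p below 0.05. There edgeR called 2, Abcg2, which fell by 1.13 on the log2 scale, and the glutathione transferase Gstm2, which rose by 0.69, and DESeq2 called 4, beside 1.62% of all genes called by edgeR. Within responsive cells Abcg2 differed by -0.57 and Gstm2 by 0.54, and edgeR called neither.

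No gene of the AHR pathway (11 of 14 in the table, 9 tested) or of the NRF2 targets (13 of 13, 13 tested), antioxidant genes under the transcription factor NRF2, was called in responsive cells, with medians of 0.30 and -0.10. At an unadjusted p below 0.05 there were 0 and 2 such genes, DESeq2 called 0 and 1, and limma-voom called 0 in each. Within cluster 1 edgeR, DESeq2 and limma-voom called 0 of the 8, 10, 9 and 12 genes tested in the 4 lists, and 1 gene, an NRF2 target, had an unadjusted p below 0.05. By the interaction edgeR and limma-voom called 0 of 8, 13, 11 and 13 genes, DESeq2 called 2 NRF2 targets, and 1 gene each of the AHR pathway and the NRF2 targets had an unadjusted p below 0.05. Between clusters Rdh10 was the only gene of the 4 lists counted as different. The medians between clusters were -0.09 for steroid conversion, -0.39 for conjugation and transport, 0.00 for the AHR pathway and -0.18 for NRF2 targets, beside -0.06 over all 10597 genes. The classical AHR targets Cyp1a1 and Cyp1a2, the aromatase Cyp19a1 and the estrogen sulfotransferase Sult1e1 were not in the table and were not analysed here.

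The genes most like 3 of the members were found by Pearson's r of log2(CPM + 1) over the 36 sums, which share libraries and the split into clusters and are given as a description. For Cyp1b1 they were Col1a2 (r = 0.957), C1s1 (0.947) and C1s2 (0.932), a collagen chain and subunits of the complement protease. For Ahr they were Ide, the insulin-degrading enzyme (0.790), Tmem176b (0.768) and Igfbp3, a binding protein of insulin-like growth factors (0.767). For Nqo1 they were the water channel Aqp5 (0.874), the kinase Mapk13 (0.868) and the matrix protein Emilin2 (0.856). Among the members themselves Cyp1b1 had r = 0.708 with Ahr, -0.795 with Nqo1, -0.549 with Hsd17b7 and values between -0.254 and 0.252 with the other 4 compared.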

How the data were processed

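Expected counts per gene and cell were deposited by the authors, who quantified reads with kallisto (version 0.44.0 and GRCm38 per the submitters' processing notes), collapsed transcripts into genes by tximport and then removed low-quality cells and rare genes. The deposited metadata gave SC3 cluster labels, trajectory states and the percent of mitochondrial reads from scater. The imputed log values were not used. The library totals were 3867791 to 5078340 counts in control and 2693258 to 4037847 in E2, and they limit the precision for rare genes. Of all values 90.1% were whole.

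Counts were summed per library and cluster (at least 3 cells), rounded, and tested with edgeR 4.0.16 (R 4.3.3; TMM, filterByExpr, quasi-likelihood, Benjamini-Hochberg). The SE is the absolute log2 fold change over the square root of F. Between clusters only differences were described. Scripts were tested on simulated data. The members and lists were chosen with earlier results of these data known. Named are the 9 genes, pathway list genes called with E2 within a cluster or by the interaction, up to 4 of them per direction past the cluster rule, and 3 most similar genes; marker genes, Abcg2 and Gstm2 were named after their values were seen. Leaving out 1 library from the pooled Nqo1 ratio was chosen after seeing the data. Alternatives were RLE size factors, DESeq2 1.42.0, limma-voom (limma 3.58.1), no filter, thinning to 20000 reads, at least 5 cells, k-means labels on 10 principal components, the library as a block, leaving out each library, all reads of a cell and at least 2 reads.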

Additional observations from a re-analysis of the deposited data

Results flagged for a closer look

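Single libraries stood far from the others of their group, by Dixon's criterion on CPM, in 6 of the 34 combinations of gene, condition and cluster in which the libraries differed. Chance flags about 1 in 20 such groups, and each test treats a group as normal, which sparse sums are not. Most of the 6 trace to few cells. E2 column 15, with 3 cluster 1 cells, had 617 CPM of Hsd17b10 (next library 65.5 CPM) and 617 CPM of Hsd17b12 (next 192 CPM), from 125 reads of each gene. The same column had the highest Ahr level of E2 responsive cells, at 43.3 CPM (next 13.5 CPM). E2 column 19 had the highest Cyp1b1 level of E2 responsive cells, at 10.7 CPM (next 2.12 CPM), from 31 reads, 28 of them in 1 cell. Control column 1 had 34.2 CPM of Nqo1 in cluster 1 (next 3.75 CPM). E2 column 16 had 72.9 CPM of Nqo1 in responsive cells (next 35.3 CPM), from 168 reads.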

How the results depend on the processing

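The numbers of genes called were 234 in responsive cells with DESeq2 (141 with edgeR), 52 with DESeq2 and 1 without the filter on genes in cluster 1 (7 with edgeR), and 318 with DESeq2 over all cells (177). The interaction gave 98 with DESeq2, 13 with limma-voom, 5 with thinned cells and 0 with the library as a block (21 with edgeR). With a library left out the count was 1 to 9 in cluster 1 and 15 to 44 for the interaction. No member was called in responsive cells, in cluster 1 or by the interaction under any alternative run. Over all cells 1 member, Cyp1b1, was called with DESeq2 (log2 fold change -1.19), and 0 to 1 with a library left out. Between clusters k-means labels counted 2 members, Cyp1b1 and Nqo1, and the library as a block gave -5.63 for Nqo1, -2.58 for Hsd17b7 and -0.58 for Hsd17b10. In responsive cells limma-voom gave -2.81 for Sult1a1. With all reads of a cell, or at least 2 reads, 37 shares left the interval of the reported share and 35 did not.

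Several changes that had not passed the threshold turned sign, in cluster 1 also those above 0.5 of Hsd17b10 (0.55) and Hsd17b12 (0.65). In responsive cells Hsd17b11 was -0.15 and Nqo1 -0.20 with limma-voom, Hsd17b11 was -0.011 without the filter, and Hsd17b10 was 0.021 with thinned cells. In cluster 1 limma-voom gave -0.45 for Cyp1b1, -0.81 for Hsd17b4, -1.06 for Hsd17b7, -2.03 for Hsd17b10 and -0.41 for Hsd17b12. At least 5 cells per sum, which removes E2 column 15, gave -0.17, -0.28, -1.36 and -0.37 for Cyp1b1, Hsd17b4, Hsd17b10 and Hsd17b12. Hsd17b10 was -1.10 with DESeq2 and -0.12 with thinned cells, Hsd17b11 0.044 with thinned cells and Hsd17b7 -0.019 without the filter. Beyond the removed column the cause was not tested. With a library left out the ranges in responsive cells were -0.13 to 0.086 for Hsd17b10, -0.11 to 0.16 for Hsd17b11 and -0.25 to 0.28 for Nqo1, and in cluster 1 -0.17 to 0.62 for Cyp1b1, -0.28 to 0.37 for Hsd17b4, -0.99 to 0.29 for Hsd17b7, -1.36 to 0.82 for Hsd17b10 and -0.37 to 0.89 for Hsd17b12. Mgst1 was called in 5 of 19 such fits. The difference of Cyp1b1 between clusters was 7.44 to 8.22 in them. No paired analysis was possible because control and E2 libraries share no column number, and the library was used as a block only for the interaction and between clusters.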

Other observations

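Other genes of steroid handling, chosen after their values were seen, add to this picture as descriptions without a test between clusters. Abcg2, an exporter of steroid sulfates, had 113 to 220 CPM in control cluster 1 and 10.5 to 90.9 CPM in control responsive libraries, which did not overlap. With E2 it had 29.4 to 163 CPM in cluster 1 and 10.6 to 51.9 CPM in responsive libraries, which did overlap, and over both conditions a log2 difference of 1.83 (higher in 16 of 17). Over all cells Abcg2 fell with E2 by 1.13 on the log2 scale (SE 0.26, adjusted p = 0.0196 by edgeR).

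Arnt2, a partner of AHR related to ARNT, had medians of 35.95 CPM in control cluster 1 and 0.570 CPM in control responsive libraries (log2 difference 3.46, higher in 15 of 17). Akr1c18, which inactivates progesterone, had medians of 43.0 and 0.156 CPM (log2 difference 5.84, higher in 14 of 17). The difference was 4.80 without E2 column 15 and 6.84 without control column 2. In E2 cluster 1 the median was 4.41 CPM, with no read in 3 of 7 libraries and 316 CPM in the highest.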
